A study of Caenorhabditis elegans with 4 samples.

Results

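Of the 6494 binding sites in the combined peak list of the C34F6.9 study in *Caenorhabditis elegans*, 1187 lay on the X chromosome, and these peaks are described here. They were chosen by chromosome name alone, with no measured value, and the 5307 peaks of the 5 autosomes in the same list served as the comparison. The lists of the single ChIP replicates held 6193 and 4991 peaks on X. In the combined list the X peaks were less often in the middle of their chromosome than autosomal peaks and less often narrow, while the distances between neighbours did not differ detectably. Fewer of them had high-ranked partners in both replicates. This difference was lost when peaks of like combined rank were compared, and also when partners over all widths had to share a 50% reciprocal overlap. Among peaks of the single commonest width it held but was smaller, with an odds ratio of 0.84 in place of 0.68.

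A *C. elegans* hermaphrodite carries a pair of X chromosomes, and a male carries a single one. In the body cells of hermaphrodites the dosage compensation complex, a condensin-like assembly, loads onto X and lowers its transcription, and in the germ line much of X is silent. The autosomes of this worm have gene-rich centres and repeat-rich arms, whereas genes along X are distributed more uniformly. The C34F6.9 gene is itself X-linked. Its locus was not placed in the build of these lists, so no peak is singled out as lying there.

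All samples came from hermaphrodites of strain OP324 at the second larval stage, L2, raised at 20 degrees Celsius and fixed in 2% formaldehyde. The strain carries the unc119(ed3) allele and the transgene wgIs324, which holds unc119 and a fusion of C34F6.9 to TY1, EGFP and FLAG tags. The labels call C34F6.9 a transcription factor, and EGFP is a green fluorescent protein (GFP). The transgene was introduced by biolistic transformation and the strain was not outcrossed. The 4 samples form 2 groups of 2, ChIP with antibodies against GFP and input (total genomic DNA), all of this 1 genotype, so no strain without the transgene stands beside them. The input samples are not analysed here. Whole animals were used, so the cells in which a site was bound are not known from these data. Whether the replicates were separate cultures is not stated in the labels, and p-values below describe peaks within these lists. Neighbouring peaks are not independent, so those p-values and all intervals cover counting error only.

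Read depth is unknown, since the lists hold no read counts. Positions are in WormBase build WS220. No gene is assigned to a peak and no sequence is shown, because a genome of that build was not used here. Peaks were ranked within each list by the authors' score, with the peak's own number breaking ties, and scores are read only as ranks. On X, 770 of the 1187 combined peaks (64.9%) shared the highest score of the list, against 75.1% of autosomal peaks, so much of the order rests on the numbers. In replicate 1 the highest score was shared by 463 X and 2724 autosomal peaks, and in replicate 2 by 260 and 1515. The top ranks of the replicate lists are therefore also in the order of the numbers. A region could be listed more than once: 10 of the X peaks repeated the start and end of another X peak under another number, leaving 1177 distinct regions, and all 6 chromosomes together had 46 such repeats. Other X peaks overlapped in part, and merging every overlap left 1126 separate regions on X. On X the repeats included peak numbers 97 and 5391, both at 10765986 to 10766440, and numbers 190 and 6176, both at 13145106 to 13145608. Counting them once altered neither the direction nor the call of the 7 results that were recomputed that way, which are all of those tested below except the share of reproduced peaks.

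The highest-ranked X peak was number 12 of the combined list, at 7822989 to 7823478, and its partners ranked 10 in replicate 1 and 20 in replicate 2. Number 20 lay at 11093904 to 11094350 and ranked 50 and 7 in the replicates. Number 24, at 5841002 to 5841464, ranked 17 and 49. Each of these leading sites therefore stood near the top of both replicate lists, where the order is that of the peak numbers. Number 33 was at 13700543 to 13700992, with replicate ranks of 29 and 31. Number 35 was at 16929300 to 16930035, with ranks of 38 and 27, and the same region was listed again as number 3039. Number 41, at 2242793 to 2243151, ranked 21 and 91. These 6 regions are dispersed along the chromosome. The next 4 were number 55 at 806496 to 806848, number 62 at 2996835 to 2997305, number 64 at 4209024 to 4209438 and number 70 at 12362876 to 12363311. The last of them differed most between replicates, ranking 204 in replicate 1 and 19 in replicate 2. Their partners' midpoints lay close to their own, within 46.5 bp in every case among the 10. Of the first 100 combined peaks 17 were on X, of the first 500 there were 71 (14.2%), and of the first 1000 there were 124 (12.4%).

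The position of the X peaks along the chromosome was examined next. The left 33.3% of X held 375 combined peaks, the middle 391 and the right 421, which is 31.6, 32.9 and 35.5%. Per Mb these counts were 63.5, 66.2 and 71.3. In the combined list the middle part was the densest on each autosome, with 41.6 to 47.97% of the peaks. The 5 together had 2416 of 5307 there (45.5%). The odds ratio of X against the autosomes was 0.59 (0.51 to 0.67, Fisher's exact test, two-sided, p = 1.7e-15, unadjusted). It was 0.82 in the full list of replicate 1 and 0.68 in that of replicate 2. In the full list of replicate 1 the middle part was not the densest on chromosomes III and IV. There it held 33.4 and 34.3% of their peaks, near the 33.1% of X. On the other autosomes of replicate 1, and on every autosome of replicate 2, the middle part was the densest. The difference between the left and right parts of X did not pass the threshold (left to right ratio 0.89, 95% interval 0.77 to 1.03, exact two-sided binomial p = 0.11, adjusted p = 0.19 over 7 tests). Halving X gave a ratio of 0.97 (exact binomial p = 0.60), and parts measured between the first and the last combined peak gave 0.93 (exact binomial p = 0.34). Among the 485 X peaks in the upper 50% of the list, 145 were on the left and 187 on the right (ratio 0.78, exact binomial p = 0.024, unadjusted), and the 702 in the lower 50% were split into 230 and 234, a difference between ranks that was not tested. The top-ranked 6494 peaks of replicate 2 alone had 369 on the left and 435 on the right (ratio 0.85, exact binomial p = 0.022, unadjusted), and those of replicate 1 had 359 and 402. In the full lists the X counts from left to right were 2074, 2049 and 2070 in replicate 1 and 1595, 1705 and 1691 in replicate 2.

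**Figure D1:**
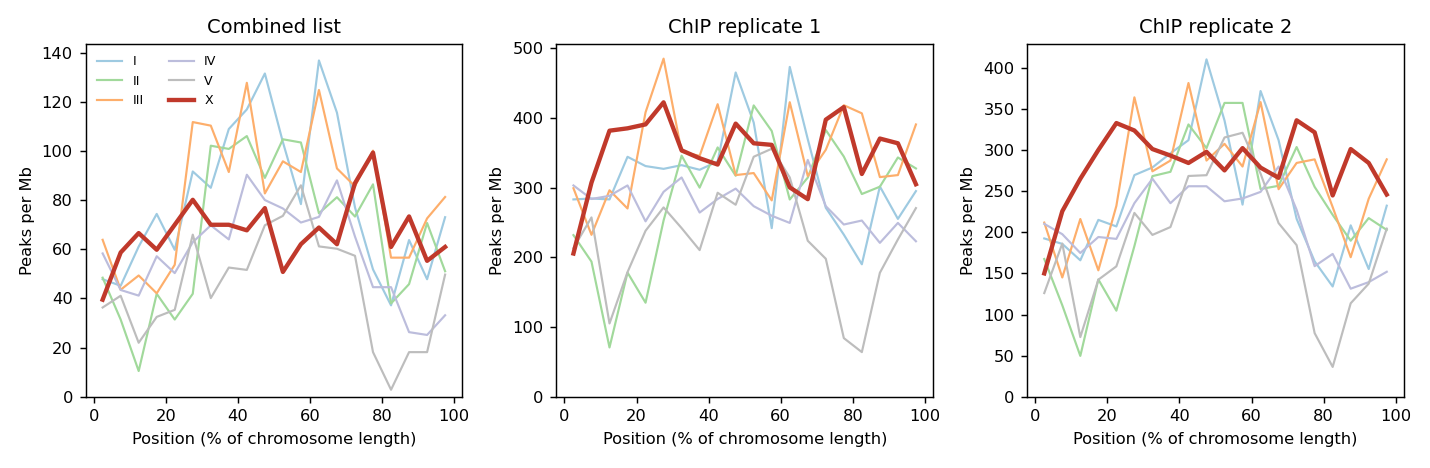
Peaks per Mb in steps of 5% of chromosome length for the combined list and each ChIP replicate, with X as the thick line and the 5 autosomes as thin lines. On X the combined density stays between 39.5 and 99.3 peaks per Mb with no rise in the centre, and the lowest step is at the left end in all 3 lists.

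In steps of 5% of the length, the combined density on X ran from 39.5 to 99.3 peaks per Mb, a range of 2.51-fold. The same range was 3.03-fold on chromosome III, which came next, and 30.0-fold on chromosome V. In replicate 1 the X range was 2.05-fold, and chromosome IV was flatter there with 1.54-fold. In replicate 2 chromosome IV also had the smaller range, 2.13-fold against 2.24-fold on X. X was therefore the flattest chromosome in the combined list and not in the replicate lists.

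By 1 Mb bins, the densest part of X in the combined list was 13000001 to 14000000, with 98 combined peaks, 434 in replicate 1 and 343 in replicate 2. In replicate 1 the bin from 2000001 to 3000000 held more, 444 peaks. The sparsest full bin was the leftmost, 1 to 1000000, with 46, 224 and 171 peaks. Over the 17 full bins the median was 68 combined peaks. The bins that were rich in one replicate were mostly rich in the other (Spearman rho 0.88 over these 17 bins, a description, since the lists share the peak caller and the underlying sequence). The combined list followed replicate 2 (rho 0.77) and replicate 1 (0.66) less closely. The bin from 14000001 to 15000000 was singled out after its values were seen. It held 66 combined peaks, close to the median, but 44 of them ranked in the upper 50% of the list, and 27 (40.9%) were narrower than the commonest width. The bin just before it held 98 peaks, of which 37 ranked in the upper 50% and 15 (15.3%) were narrow.

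The densest windows of 100 kb on X were at 4130001 to 4230000 and at 15550001 to 15650000, each with 21 combined peaks. The mean over windows on X was 6.73. The first of these windows held 59 replicate 1 and 57 replicate 2 peaks, and the second held 51 and 50. Windows at 7940001 to 8040000 with 20 peaks, 2520001 to 2620000 with 19 and 5750001 to 5850000 with 19 followed. The fourth was the richest of the 5 in replicate 1, with 80 peaks, but its combined peaks ranked low, with a median rank of 4761. The window from 5750001 to 5850000 had a median rank of 3147 and contains peak number 24. No window on X reached the most crowded ones of chromosomes I, II and III, which held 31, 32 and 24 combined peaks. Those of IV and V held 18 and 19.

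How closely X peaks follow each other was measured between neighbouring midpoints. The median distance on X was 6720 bp and the mean was 14623 bp. The middle 50% of the distances lay between 1988 and 20050 bp. Autosomal medians ran from 6077 bp on chromosome I to 8068 bp on V, so X lay within their range. Of 1186 distances on X, 299 (25.2%) were at most 2 kb, where 24.4% of all 6488 distances in the list were. The share on the autosomes was 24.3% (1286 of 5302), and the difference from X did not pass the test (odds ratio 1.05, 95% interval 0.91 to 1.22, Fisher's exact test, two-sided, p = 0.50, adjusted p = 0.58). Of the neighbouring pairs on X, 61 (5.14%) overlapped each other, against 4.09 to 5.25% on the autosomes. With overlapping peaks merged first, the shares were 21.1% on X (237 of 1125) and 20.4% on the autosomes (odds ratio 1.04, Fisher's exact p = 0.65). The spacings and chains given here count overlapping peaks separately. The coefficient of variation of the distances was 1.42 on X and 1.30 to 2.07 on the autosomes. In the denser replicate lists the median distance was shortest on X, 1376 bp in replicate 1 against 1400 to 1582 bp on the autosomes, and 1665 bp in replicate 2 against 1710 to 1964 bp.

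**Figure D2:**
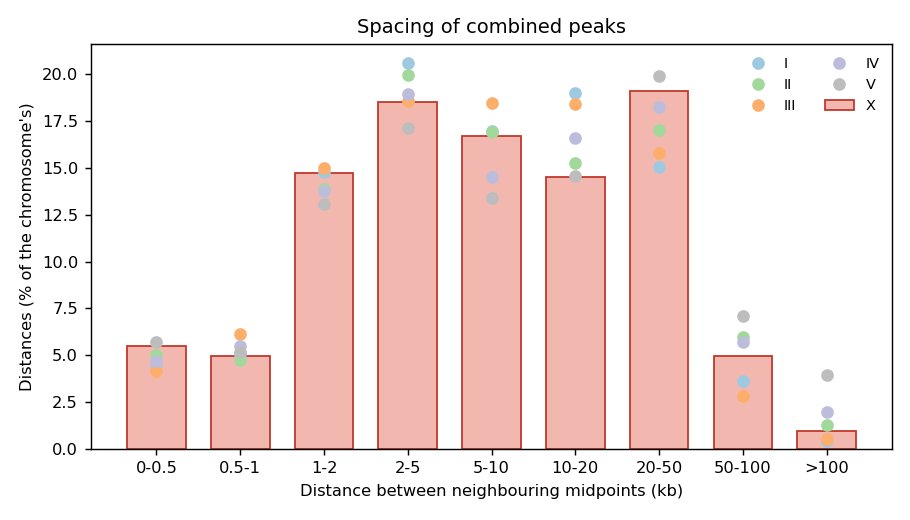
Share of the distances between neighbouring combined peak midpoints that fall in each distance class (kb), with bars for X and points for the 5 autosomes. X has 14.8% of its distances between 1 and 2 kb and 19.1% between 20 and 50 kb, and its bar lies within the autosomal points in every class except 10 to 20 kb, where it is just below them.

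Chaining midpoints at most 2 kb apart gave 888 groups on X: 686 single peaks (57.8% of the X peaks), 147 pairs and 55 clusters of at least 3 peaks. The clusters held 207 peaks, 17.4% of those on X, and the autosomes ranged from 16.0 to 18.7%. The largest chain on X had 11 peaks in 8971 bp, at 6735492 to 6744462. The largest chains of the autosomes had 6 to 10 peaks. With midpoints at most 5 kb apart the longest chain was on chromosome II, with 21 peaks against 13 on X, and at 1 kb X, I and II each had 5. All of its 11 peaks overlapped a peak in both replicates, which listed 13 and 14 peaks across the same span, and its members ran from number 878 to number 6222. The second, at 6245566 to 6256015, had 9 peaks in 10450 bp and lay to the left of the first. The third had 7 peaks at 11467344 to 11475049 and included number 610. The fourth had 6 peaks at 15338054 to 15346029, none of them narrow, and its best member was number 3250. The fifth had 5 peaks in 3724 bp at 4142097 to 4145820, inside the densest window. X peaks with a neighbour within 2 kb had a median rank of 4066, against 3718 for single ones. The autosomes had the same order, 3391 and 2924.

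Long stretches of X held no combined peak. There were 11 distances over 100 kb on X, against 5 on chromosome I, 13 on II, 6 on III, 20 on IV and 37 on V. They were 0.93% of the distances on X, within the range of single autosomes, from 0.41% on I to 3.97% on V. Over all autosomes 81 of 5302 distances were this long. The 11 stretches made up 1.47 Mb, or 8.31% of X. The longest was 1627312 to 1845376, 218 kb, where the mean density of X would place 14.6 combined peaks. As a stretch without a combined peak lacks the replicate peaks that overlap one, the replicates are set against the mean density of those X peaks that overlap none, 4716 in replicate 1 and 3498 in replicate 2. Replicate 1 had 19 peaks in the longest stretch where that mean would give 58.0, and replicate 2 had 7 in place of 43.1, none of them among the first 6494 of either list. The second, 15866384 to 16024507, was less empty in the replicates, with 31 and 23 peaks in place of 42.1 and 31.2. Between 11095814 and 11241385 replicate 1 had 11 peaks and replicate 2 had 18, and 2 and 1 of these ranked among the first 6494. This stretch begins just to the right of peak number 20. The other members of the longest 5 were 12211042 to 12347803, with 12 and 18 replicate peaks, and 10901273 to 11027885, with 24 and 22. Not all stretches were sparse in the replicates: over the 11 of them replicate 1 ranged from 25.6 to 126% of that mean and replicate 2 from 16.3 to 121%, with 8 and 9 stretches below it. The highest values were at 3155419 to 3280851, with 42 and 30 peaks. Both ends of X were also sparse. No combined peak lay in the 324 kb at the left end, where the replicates had 24 and 15 peaks (27.8 and 23.4% of the same mean), and none lay in the last 50.2 kb, where they had 7 and 6.

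The share of peaks on X was then followed down the ranks. X makes up 17.7% of the nuclear length and held 18.3% of the combined peaks (density ratio X to autosomes 1.04, 0.98 to 1.11, exact two-sided binomial p = 0.20, adjusted p = 0.29). Single autosomes ranged from 44.6 combined peaks per Mb on V to 81.7 on III, against 67.0 on X. In the first 650 combined ranks 89 peaks were on X (13.7%, exact 95% interval 11.1 to 16.6%), and in the next 649 there were 77 (11.9%). The share was 17.3% in ranks 2599 to 3247 and reached 27.4% (24.0 to 31.0%) in the last 649. X was thus below its share of the length at the top of the list and above it at the bottom. All peaks in the upper 50% of the combined list shared its highest score, so their order here is that of the peak numbers. The same was true of the first 10% of replicate 1. The upper 50% of the combined list gave a ratio of 0.82 (0.74 to 0.90) and the lower 50% a ratio of 1.28 (1.18 to 1.40). The replicate lists also started low, at 14.2% (12.9 to 15.5%) in the first 10% of replicate 1 and 16.4% (14.9 to 18.0%) in that of replicate 2. They rose sooner than the combined list, to 23.6% (22.1 to 25.2%) in the third 10% of replicate 1 and 24.8% (23.0 to 26.6%) in the fifth 10% of replicate 2. Further down they were lower again, with 20.0% (18.6 to 21.5%) in the ninth 10% of replicate 1 and 20.4% (18.8 to 22.1%) in the last 10% of replicate 2. Over the full lists the X density was 1.23 times that of the pooled autosomes in replicate 1 (1.19 to 1.26) and 1.27 times in replicate 2 (1.23 to 1.31). Chromosome III was nearly as dense as X in replicate 1, with 348 against 350 peaks per Mb. In replicate 2 it had 263 against 282. The median rank of combined peaks was 3905 on X and 2848 to 3333 on the autosomes.

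**Figure D3:**
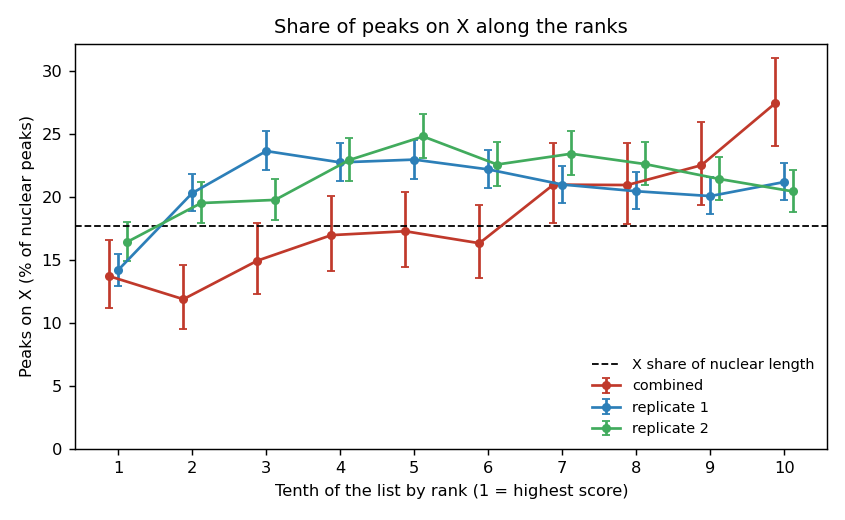
Percentage of nuclear peaks that lie on X in each successive 10% of the ranks of the combined list and of each replicate, with exact 95% intervals and a dashed line at the X share of the nuclear length, 17.7%. The combined list climbs from 13.7 to 27.4%, and both replicates start below the line and stay above it from the second 10% on.

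The X peaks differed from autosomal peaks in width. The combined list has a commonest width of 456 bp, and 30.8% of its 6494 peaks were narrower. On X 243 of 1187 peaks were narrower (20.5%, exact 95% interval 18.2 to 22.9%), against 1754 of 5307 on the autosomes (33.1%, 31.8 to 34.3%). The odds ratio was 0.52 (0.45 to 0.61, Fisher's exact test, two-sided, p = 2.5e-18, adjusted p = 1.7e-17). Every autosome lay above X, from 30.2% on V to 36.2% on III. The replicate lists, whose commonest widths were 450 and 460 bp, showed the same order, with 2.54 and 3.07% narrow peaks on X against 4.13 to 6.56% and 3.85 to 6.72% on the autosomes. Narrow peaks stood mostly in the upper ranks, where X had fewer peaks. Compared within successive 10% steps of rank, the odds ratio was 0.59 (0.47 to 0.74, exact stratified test, two-sided, p = 3.2e-06), and within blocks of 100 ranks it was 0.61 (0.48 to 0.77, exact p = 2.7e-05). The gap was widest in ranks 1300 to 1949, where 48.5% of 97 X peaks and 72.7% of 553 autosomal peaks were narrow. In the lower 50% of the list only 10 X peaks were narrow, and the difference no longer passed (odds ratio 0.63, 0.32 to 1.24, Fisher's exact p = 0.23). Along X the narrow share was 19.7% on the left, 17.9% in the middle and 23.5% on the right.

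**Figure D4:**
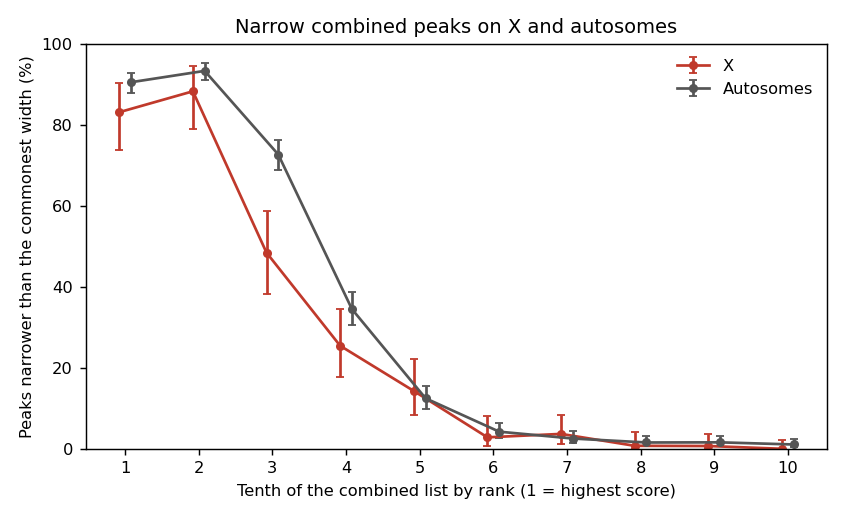
Percentage of combined peaks narrower than the commonest width, 456 bp, in each successive 10% of the ranks, for X and the pooled autosomes, with exact 95% intervals. X lies below the autosomes in the first 4 steps, with 48.5 against 72.7% in the third, and both are under 5% from the sixth step on.

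At the other end, 23 X peaks (1.94%) were wider than 456 bp, and 103 autosomal peaks were (1.94%). The widest peak of the whole combined list was on X, at 16930517 to 16931821, and measured 1305 bp. It was number 1598 and lay just to the right of peak number 35, itself 736 bp wide. The widest autosomal peak measured 876 bp. The second widest on X, at 10568335 to 10569163, was 829 bp wide and was number 426.

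Support from the replicates was counted as at least 1 shared bp. The combined list comes from the same ChIP samples as the replicate lists, so a high overlap is no independent evidence for a site. In the whole combined list 99.4% of peaks overlapped a peak in both replicates, and on X the count was 1180 of 1187 (99.4%, exact 95% interval 98.8 to 99.8%). The autosomal share was 5276 of 5307 (99.4%), with an odds ratio of 0.99 (0.44 to 2.25, Fisher's exact test, two-sided, p = 1.0, adjusted p = 1.0). Of the 7 exceptions on X, 5 lacked replicate 1 and 2 lacked replicate 2. Those without replicate 1 were at 4982000 to 4982455, 7200468 to 7200923, 9814307 to 9814762, 10821082 to 10821537 and 11982017 to 11982472. Their partners in replicate 2 ranked between 1411 and 7369, so these were not its weakest calls. Those without replicate 2 were at 992812 to 992956 and 2548596 to 2549051, and their replicate 1 partners ranked 4930 and 5395. The first of these was the only one narrower than 456 bp, at 145 bp, and another X peak lay 267 bp from it.

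With a 50% reciprocal overlap in both replicates the shares fell and separated, to 1040 X peaks (87.6%) and 4394 autosomal peaks (82.8%), with an odds ratio of 1.47 (1.22 to 1.77, Fisher's exact p = 3.6e-05). A peak under 50% of its partner's width cannot meet that criterion, and X had fewer narrow peaks. Among peaks of exactly 456 bp the shares were 98.4% on X and 98.6% on the autosomes (odds ratio 0.85, 0.48 to 1.53, Fisher's exact p = 0.64). The midpoint of an X peak lay a median of 14 bp from that of its best-ranked replicate 1 partner and 15.5 bp from that of replicate 2, against 10 and 15 bp on the autosomes. More than 1 overlapping peak was found for 34.1% of X peaks in replicate 1 and 35.8% in replicate 2. The autosomes had 28.2 to 32.5% and 27.1 to 29.7%. X also had fewer narrow peaks and more replicate peaks per Mb than the pooled autosomes. The comparison was not repeated at a single width, and the part of either was not tested.

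Whether the partners were themselves high in the replicate lists was asked with the length of the combined list, 6494, as the limit. In the whole combined list 79.1% of peaks had a partner within that limit in both replicates. On X there were 874 of 1187 (73.6%, exact 95% interval 71.0 to 76.1%), fewer than the 4264 of 5307 on the autosomes (80.3%, 79.3 to 81.4%). The odds ratio was 0.68 (0.59 to 0.79, Fisher's exact test, two-sided, p = 5.0e-07, adjusted p = 1.2e-06). The lowest autosome was IV with 78.2%. The shortfall on X was larger in replicate 1, where 85.8% of X peaks had a partner within the limit against 91.2%, than in replicate 2 with 86.1 against 88.0%, a difference between replicates that was not tested. The lower ranks of X peaks in the combined list moved with this result. Combined rank comes from the same ChIP samples as the replicate ranks, so comparing within it partly holds the outcome fixed. In the upper 50% of the combined list the share was 99.4% on X and 99.4% on the autosomes. Compared within successive 10% steps of combined rank, the odds ratio was 1.10 (0.90 to 1.35, exact stratified p = 0.35), and with a 50% reciprocal overlap it was 0.91 (0.80 to 1.04, Fisher's exact p = 0.18), so the call was lost in both comparisons. Among peaks of exactly 456 bp it held, with odds ratios of 0.84 by 1 bp overlap (0.72 to 0.98, Fisher's exact p = 0.024) and 0.82 by reciprocal overlap (0.71 to 0.96, Fisher's exact p = 0.012). With partners taken by midpoints at most 200 bp apart, over all widths, the odds ratio was 0.66 (0.57 to 0.76, Fisher's exact p = 1.5e-08). From left to right along X the share was 69.3, 73.7 and 77.4%.

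**Figure D5:**
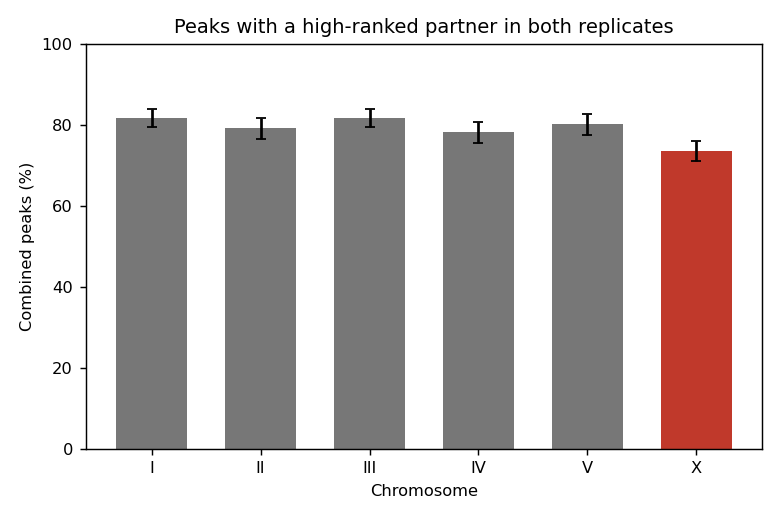
Percentage of combined peaks on each chromosome whose best overlapping peak is among the first 6494 of its list in both replicates, with exact 95% intervals. X stands at 73.6% and the autosomes between 78.2 and 81.8%.

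Many X regions were found in both replicates without entering the combined list. Of the 6193 X peaks of replicate 1, 3660 (59.1%) overlapped a replicate 2 peak, against 58.5% on the autosomes. Over all nuclear peaks of replicate 1 that were reproduced in this way, 45.5% overlapped a combined peak. On X 1476 of 3660 did (40.3%, exact 95% interval 38.7 to 41.9%), against 6449 of 13748 on the autosomes (46.9%, 46.1 to 47.7%; odds ratio 0.76, 0.71 to 0.82, Fisher's exact test, two-sided, p = 1.1e-12, adjusted p = 3.8e-12). Chromosome V was close to X with 40.7%, and the other autosomes ranged from 47.3 to 51.1%. Thus 2184 reproduced X peaks of replicate 1 overlapped no combined peak, and in replicate 2 the number was 2071 of 3556. Here too rank moved with the result. Of reproduced X peaks among the first 3247 of replicate 1, 99.6% overlapped a combined peak, next to 99.3% on the autosomes. From rank 3248 to 6494 the shares were 84.6 and 86.7%, and from 6495 to 12988 they were 26.7 and 26.9%. In replicate 2 X was lower in the upper ranks, with 94.8% (524 of 553) against 97.0% (2556 of 2634) among the first 3247 and 82.5 against 86.5% in ranks 3248 to 6494. Compared within successive 10% steps of replicate 1 rank, the odds ratio was 0.94 (0.85 to 1.05, exact stratified p = 0.27), and within those of replicate 2 rank it was 0.90 (0.81 to 1.005, exact stratified p = 0.059).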

How the data were processed

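The data were 3 peak lists, 1 for each of the 2 ChIP samples and 1 combined. Per the file headers their format is GFF version 3 and their build WormBase WS220, and the source column gives SPP, a peak caller, and IDR, a measure of reproducibility. Aligner, versions, thresholds, use of the input and the making of the combined list: not given in the sources used here. The score in each deposited list is the authors', and its scale is not stated. Start and end positions were used as deposited.

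X peaks were those with X in the chromosome column. Midpoint, width, spacing, chains and overlaps were computed from the positions. Chromosome lengths were the largest peak end over the 3 lists. The first, middle and last 33.3% of a chromosome are equal lengths. Exact binomial tests, Fisher's exact tests and, across rank strata, exact conditional tests with Mantel-Haenszel odds ratios were used. Main p-values were adjusted by the Benjamini-Hochberg method over 7 tests, and all intervals are 95%. The test of the middle part was added later and is not among those 7, so its p-value is unadjusted. Shares have Clopper-Pearson intervals. The 2 replicates were not tested against each other. The density ratio, the odds ratio of shares, the overlaps, the spacing and the merging of overlapping peaks were tested on simulated data. The other steps were not.

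Regions named were the first 10 X peaks by number with support in both replicates, all unsupported X peaks, the 5 longest empty stretches with both ends, the 5 densest windows of 100 kb (10 kb steps), the 5 largest chains, and the extreme 1 Mb bins. The repeated and the widest regions, the bins from 2000001 and 14000001 and the stretch from 3155419 were chosen after their values were seen. The members, tests and lists were chosen with earlier results of these data known. Software was scipy 1.17.1, statsmodels 0.14.6, pandas 2.3.3, numpy 2.4.6 and matplotlib 3.10.9 under Python 3.11.15.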

Additional observations from a re-analysis of the deposited data

How the results depend on the processing

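Of 63 comparisons with an alternative setting, 47 left both the direction and the side of the 0.05 threshold (unadjusted) as they were. The test of the middle part of X and the alternatives by rank strata, by single width, with the lower 50% of the list, with the full replicate lists, with an autosome left out and with repeated regions counted once were chosen after seeing the data. In the upper 50% of the combined list the density ratio of X became 0.82, the left to right ratio 0.78, the odds ratio of close neighbours 0.88, that of support in both replicates 1.05 and that of high rank 0.94. In the lower 50% the density ratio was 1.28 and the odds ratio of narrow peaks 0.63. The full replicate lists gave density ratios of 1.23 and 1.27. With a 50% reciprocal overlap the odds ratio was 1.47 for support and 0.91 for high rank. Stratified by rank it was 1.10 for high rank and 0.94 and 0.90 for reproduced peaks of replicates 1 and 2 in the combined list. Leaving out 1 replicate, with the first 6494 peaks of the other in place of the combined list, gave density ratios of 1.01 to 1.05, left to right ratios of 0.85 to 0.89, middle-part odds ratios of 0.55 to 0.61, narrow odds ratios of 0.51 to 0.60 and close-neighbour odds ratios of 0.95 to 1.05. The cause of these changes was not tested. Support, high rank and reproduced peaks need both replicates and have no such value. No paired analysis was possible because the lists used here come from ChIP samples alone. Read depth is unknown, so an empty stretch of X cannot be told from one with too few reads.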
